A study of Mus musculus with 2 samples.

Results

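The tumour necrosis factor (TNF) superfamily was described in sorted mouse regulatory T (Treg) cells. The 40 genes were those whose array name starts with Tnfsf or Tnfrsf and a digit, or is Tnf, Lta, Ltb, Ltbr, Cd40, Cd40lg, Cd27, Cd70, Fas or Fasl. They comprised 16 ligands and 24 receptors out of 30069 gene names, read by 51 of 39348 array features (60-base probes). Total RNA of Treg cells from mice 5 weeks old was hybridised to 1 array per genotype, 1 labelled Nr4a-deficient and 1 wild-type. The sample title says Nr4a-deficient and the protocol calls these mice Nr4a-TKO, the name used for that library from here on. For it, the promoter or cell type that drives the deletion, the tissue, the surface markers of the sort and the number of animals per library are not given in the sources used here. Without replicates nothing was tested between genotypes, and each value describes these 2 libraries. In bulk RNA, fewer cells of a type and less RNA per cell cannot be told apart.

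Ligands of this superfamily are mostly trimeric proteins on the cell surface or shed from it, and they act by clustering their receptors. Some receptors with a death domain, such as Fas, can start apoptosis. Many costimulatory receptors bind TRAF adaptors and activate NF-kappaB. Treg cells are known for high surface amounts of several costimulatory receptors, among them GITR (Tnfrsf18), OX40 (Tnfrsf4), DR3 (Tnfrsf25) and TNF receptor 2 (Tnfrsf1b), and signals through these receptors support Treg survival and expansion.

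Signals are the scanner software's processed intensities on a linear scale, before scaling between arrays. Each array was divided by its 75th percentile, 1762 units for Nr4a-TKO and 2047 for wild-type, and log2 differences were taken with wild-type subtracted. A gene was counted as detected when its probe was well above background, by the scanner software's call, on at least 1 array, and a gene detected on 1 array only has a bound. After this scaling the 8 spike-in RNAs differed by 0.37 ± 0.058 (SD, n = 8), higher on the Nr4a-TKO array. Every measured difference is therefore lower by 0.37 on the spike-in scale, while a bound above 0 drops no further than 0. Repeat spots of 1 probe gave an SD of a spot difference between 0.066 and 0.45 log2 units from bright to dim probes, which leaves out differences between animals and sorts. The targeted genes did not check the label: Nr4a1 lay at 0.86 and Nr4a2 at 0.98 and 0.68 at its probes, all above 0, and the Nr4a3 probe failed the background call on both arrays (23.7 ± 8.9 and 72.0 ± 7.3 units, SD over spots). The deleted part of each gene is not given, and a probe outside it checks nothing, so each direction below rests on the label. Of the Treg markers, Foxp3 (74.5 and 85.4 intensity units), Il2ra, Ikzf2, Ikzf4, Ctla4 and Tnfrsf18 were all detected on both arrays, as were Cd4 and Cd3e. The Foxp3 signals were dim, near the lowest values well above background, 51.1 and 73.8 units.

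Of the 40 genes, 33 were well above background on both arrays, 4 on 1 array and 3 (Tnfsf4, Tnfrsf11b and Tnfrsf19) on neither. Among the 15 detected ligands, 3 (Cd70, Lta and Tnfsf15) lay below wild-type by 2-fold or more in the library labelled Nr4a-TKO and 1 (Tnfsf8) above it. Among the 22 detected receptors, 1 (Cd40) passed 2-fold upward (4.55%) and none downward. Bounds were counted at their own value, so Tnfsf18, Tnfrsf8 and Tnfrsf17 may be higher than counted. Over all 18540 detected genes, 4.94% passed 2-fold downward and 4.7% upward. Both lists together gave 8.11% lower and 5.41% higher. These are 3 and 2 genes, too few to set either share apart from that of all genes. Of the 3 lower ones, Cd70 is a bound and Tnfsf15 was dim. Both moved inside 2-fold with normexp background correction. At 1.5-fold, 8 of 37 members (21.6%) were lower and 2 (5.41%) higher, against 8.68% and 8.72% of all genes. The 8 were 4 ligands, Cd70, Lta, Tnfsf15 and Tnfsf10, and 4 receptors, Tnfrsf14, Tnfrsf21, Tnfrsf18 and Tnfrsf25.

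**Figure D1:**
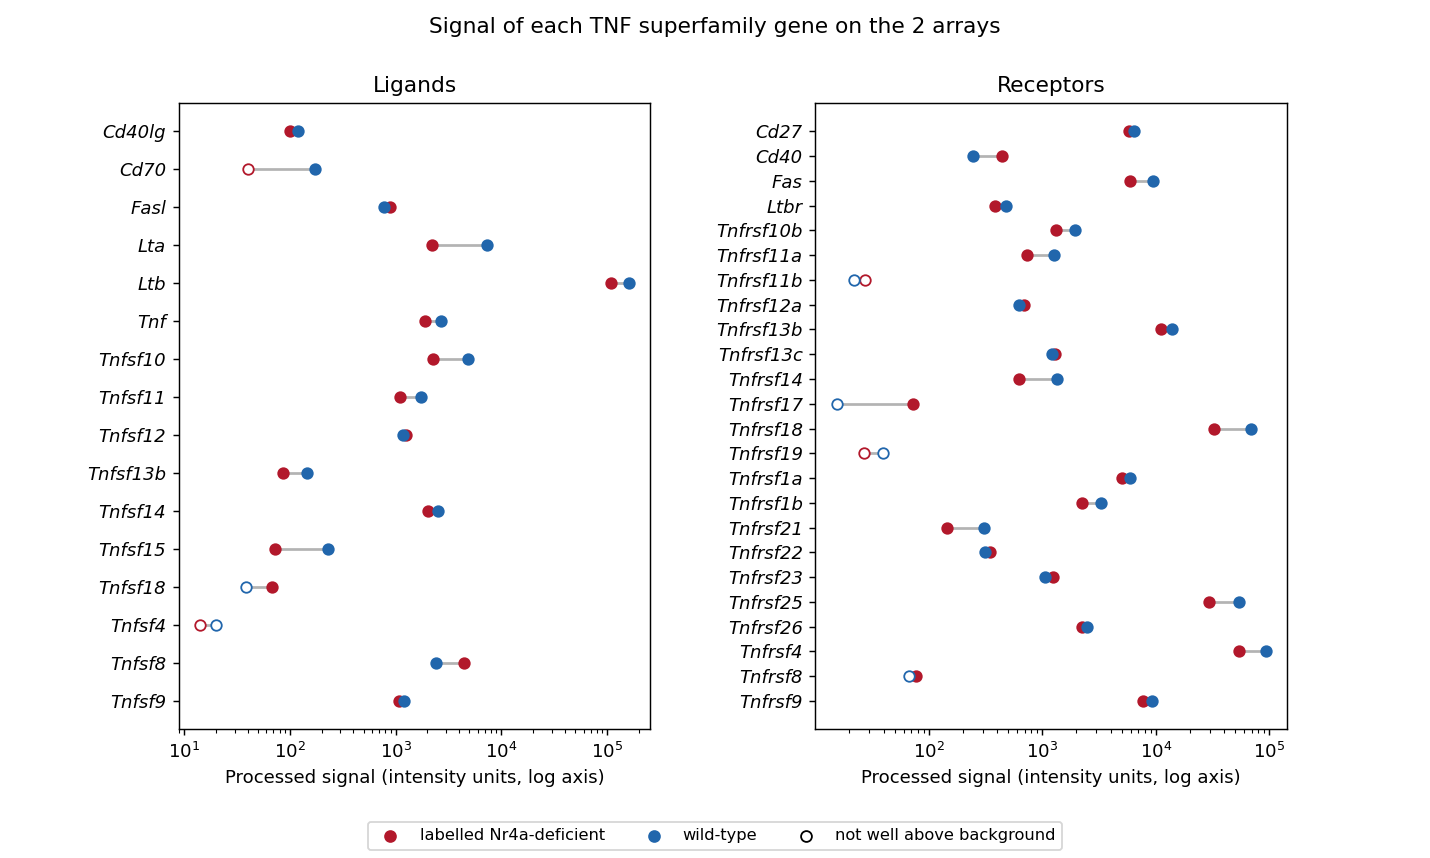
Processed signal (horizontal, intensity units, log axis) of each of the 40 genes on the array of the library labelled Nr4a-TKO (red) and the wild-type array (blue), with open circles for a probe not well above background and 1 probe per gene. Lta stands at 7286 units in blue and 2223 in red and Tnfsf8 shows the opposite order with 2412 in blue and 4457 in red, and positions of different genes are not comparable because each probe has its own response.

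Upstream sequence is shown for neighbouring members whose values are set side by side below, and for Tnfrsf9, where the second of its 2 annotated starts had matches to both motifs below and the first had none. RefSeq's table (GRCm38.p6) held 34 windows for 30 of the 40 genes, each read here over the 250 bases before the annotated start. Capitals mark matches, on either strand, to the kappaB consensus or to the AP-1 motif TGANTCA. The NBRE, the monomer site of Nr4a receptors (AAAGGTCA), was found in none of these 34 windows and in 1.34% of all 32851 windows. A kappaB match lay in 3 member windows (Ltb, Tnfrsf8 and Tnfrsf9) and in 3.9% of all windows, and an AP-1 match in 5 (Fas, Tnfrsf8, Tnfrsf9, Tnfsf13b and Tnfsf14) and in 6.75% of all windows. A match is a run of letters and not evidence of binding.

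The lymphotoxin cluster on chromosome 17 is shown first because its 3 ligands all lay below 0, with the ligand neighbours Tnfsf15 and Tnfsf8 next because they lay on opposite sides, and then the receptors.
Lta, chr17:35205352-35205601 (- strand): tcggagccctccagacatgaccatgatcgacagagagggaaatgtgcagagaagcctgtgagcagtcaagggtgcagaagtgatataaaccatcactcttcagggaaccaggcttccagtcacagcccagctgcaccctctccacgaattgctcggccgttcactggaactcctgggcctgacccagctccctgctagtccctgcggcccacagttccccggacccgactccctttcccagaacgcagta
Tnf, chr17:35202008-35202257 (- strand): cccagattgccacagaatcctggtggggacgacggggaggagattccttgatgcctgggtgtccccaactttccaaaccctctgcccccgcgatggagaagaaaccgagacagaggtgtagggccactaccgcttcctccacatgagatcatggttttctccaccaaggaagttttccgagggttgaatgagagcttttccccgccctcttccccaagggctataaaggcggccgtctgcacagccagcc
Ltb, chr17:35194257-35194506 (+ strand): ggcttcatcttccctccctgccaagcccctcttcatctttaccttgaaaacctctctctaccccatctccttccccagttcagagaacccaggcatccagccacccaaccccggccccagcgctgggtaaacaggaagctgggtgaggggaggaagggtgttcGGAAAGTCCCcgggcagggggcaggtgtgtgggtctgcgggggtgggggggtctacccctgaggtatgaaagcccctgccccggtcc
Tnfsf15, chr4:63745060-63745309 (- strand): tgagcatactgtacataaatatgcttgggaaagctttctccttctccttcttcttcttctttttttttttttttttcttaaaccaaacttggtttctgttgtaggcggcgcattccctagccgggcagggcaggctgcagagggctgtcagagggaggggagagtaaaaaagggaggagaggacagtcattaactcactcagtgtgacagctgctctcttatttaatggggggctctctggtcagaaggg
Tnfsf8, chr4:63861285-63861534 (- strand): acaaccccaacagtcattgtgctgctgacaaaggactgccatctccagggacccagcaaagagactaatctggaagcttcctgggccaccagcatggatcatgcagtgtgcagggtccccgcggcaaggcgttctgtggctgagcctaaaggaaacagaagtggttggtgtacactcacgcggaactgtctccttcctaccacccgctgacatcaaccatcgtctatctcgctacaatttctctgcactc
Tnfrsf4, chr4:156013445-156013694 (+ strand): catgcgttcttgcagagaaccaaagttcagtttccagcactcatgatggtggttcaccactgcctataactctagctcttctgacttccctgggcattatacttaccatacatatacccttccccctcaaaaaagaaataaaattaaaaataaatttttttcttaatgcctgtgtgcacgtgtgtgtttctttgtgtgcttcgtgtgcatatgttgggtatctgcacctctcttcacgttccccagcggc
Tnfrsf18, chr4:156026072-156026321 (+ strand): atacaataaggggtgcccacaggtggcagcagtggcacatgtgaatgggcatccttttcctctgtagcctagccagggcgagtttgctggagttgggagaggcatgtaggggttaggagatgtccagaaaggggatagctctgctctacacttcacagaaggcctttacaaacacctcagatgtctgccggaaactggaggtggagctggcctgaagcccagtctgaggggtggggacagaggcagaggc
Tnfrsf9, chr4:150927749-150927998 (+ strand): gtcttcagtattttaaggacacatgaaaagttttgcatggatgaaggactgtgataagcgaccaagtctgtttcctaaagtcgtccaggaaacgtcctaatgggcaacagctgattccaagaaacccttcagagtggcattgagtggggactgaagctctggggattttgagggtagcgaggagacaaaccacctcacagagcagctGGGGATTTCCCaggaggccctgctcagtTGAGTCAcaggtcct

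Lta encodes lymphotoxin alpha, a secreted ligand of the TNF receptors that also joins lymphotoxin beta on the cell surface. Its 10 spots ran from 2176 to 2280 intensity units in the library labelled Nr4a-TKO, with a median of 2219, and from 6929 to 7510 in the wild-type library, with a median of 7283. Before scaling, no spot of one array reached the range of the other, but repeat spots of an array are not replicates of a genotype. After scaling, Lta was 2.82-fold lower (-1.496), or 3.65-fold lower on the spike-in scale. The SD over spots was 0.021 and 0.035 log2 units, respectively. Its probe lies on chromosome 17 from 35340275 to 35340334 on mm9, the build of the array design, and with no mm9 annotation used here the exon under it is not given.

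The adjacent genes Tnf and Ltb differed less than Lta. Tnf, the prototype inflammatory ligand, had 10 spots from 1820 to 1968 units in the library labelled Nr4a-TKO and 10 from 2610 to 2758 in the wild-type library, again without overlap before scaling. Its difference was -0.30, within 2-fold. Ltb, which anchors lymphotoxin alpha to the membrane, read 108351 and 161236 units, a difference of -0.36. All 3 ligands of this cluster thus lay lower in the library labelled Nr4a-TKO, but Lta alone passed 2-fold. The direction was the same under each of the 10 processing settings tried. Several of these cannot change a gene read by a single probe above background on both arrays. Of the receptors, Tnfrsf1b lay close to Tnf, at -0.35, and Tnfrsf1a and Ltbr lay nearer to 0. Tnfrsf1a, the broadly expressed TNF receptor with a death domain, had spots from 4831 to 5206 units in the library labelled Nr4a-TKO. In the wild-type library its 9 unflagged spots ran from 5669 to 6129. These spots did not overlap either, yet scaling brought the difference of Tnfrsf1a to -0.01. A lack of overlap before scaling is therefore no measure of a difference between the libraries. Ltbr, the lymphotoxin beta receptor of stromal and myeloid cells, lay at -0.11 with signals of 384 and 483 units.

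Cd70, the ligand of the costimulatory receptor CD27, was at least 2.89-fold lower. Its single spot read 172 units in the wild-type library and 40.6 in the library labelled Nr4a-TKO, where it was not well above background. Cd27 itself read 5849 and 6469 units at its brighter probe, a difference of 0.07, and 0.03 at its other probe, and these became -0.30 and -0.34 on the spike-in scale. Ligand and receptor of this pair therefore gave unlike values in the same libraries. With normexp background correction and an offset of 50, the Cd70 value moved inside 2-fold, to -0.74 or, with quantile normalization, -0.90.

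Tnfsf15 encodes TL1A, the ligand of DR3. It read 71.6 units in the library labelled Nr4a-TKO and 229 in the wild-type library, 2.75-fold lower (-1.46), with an SD of a spot difference of 0.24 at this brightness and a scanner error of 20.4% and 12.6% of the signal. Its value also moved inside 2-fold with normexp, to -0.78, and to -0.92 with quantile normalization. The bright probe of its receptor Tnfrsf25, DR3, read 29637 and 54507 units, a difference of -0.66. Both members of this pair lay lower in the library labelled Nr4a-TKO under all 10 settings, several of which cannot change a gene with a single such probe.

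Tnfsf8, the CD30 ligand, had the highest difference among the ligands well above background on both arrays. It read 4457 units in the library labelled Nr4a-TKO and 2412 in the wild-type library, 2.15-fold higher (1.10). On the spike-in scale this was 1.66-fold (0.73), inside 2-fold. Its receptor gene Tnfrsf8, CD30, lay near the detection limit, with 77.4 units and a call above background in the library labelled Nr4a-TKO and 66.5 units without that call in the wild-type library, which gives a bound of at least 1.22-fold higher. Tnfsf8 and Tnfsf15 are neighbours on chromosome 4, with probes starting at 63493871 and 63388134 on mm9, and they lay on opposite sides of 0.

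Tnfsf10 encodes TRAIL, a ligand of death receptors. Its probe read 2246 units in the library labelled Nr4a-TKO and 4881 in the wild-type library, 1.87-fold lower (-0.90), and 2.42-fold lower on the spike-in scale. Tnfrsf10b, the TRAIL receptor of the mouse, lay at -0.35 with 1319 and 1947 units. Fasl, the ligand that kills through Fas, lay at 0.41 with 890 and 779 units, while Fas read 5918 and 9386 units and lay at -0.45. For this death ligand and its receptor the differences thus had opposite signs, with Fasl at 0.04 on the spike-in scale. The other ligands measured on both arrays lay within 1.5-fold. Tnfsf11 (RANKL, which drives osteoclasts and lymph node formation) lay at -0.43, Tnfsf14 (LIGHT) at -0.10 and Tnfsf9 (4-1BB ligand) at 0.06, or -0.31 on the spike-in scale.

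Tnfsf13b, the B cell survival factor BAFF, was dim with 85.4 and 147 units and lay at -0.56, with an SD of a spot difference of 0.36. Cd40lg, the helper T cell ligand of CD40, was also dim with 100.4 and 120.4 units and lay at -0.05. Tnfsf18, the GITR ligand, passed the background call in the library labelled Nr4a-TKO with 67.5 units and not in the wild-type library with 38.3 units. This gives a bound of at least 1.06-fold higher, while the values as read differed by 1.03 log2 units. Tnfsf4, the OX40 ligand, read 14.2 and 20.0 units and failed the background call on both arrays. Tnfsf12 (TWEAK) gave different signs at its probes, 0.31 at the brighter (1253 and 1174 units) and -0.52 at the dimmer (134 and 224 units). The direction of Tnfsf12 is therefore not settled by these probes.

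**Figure D2:**
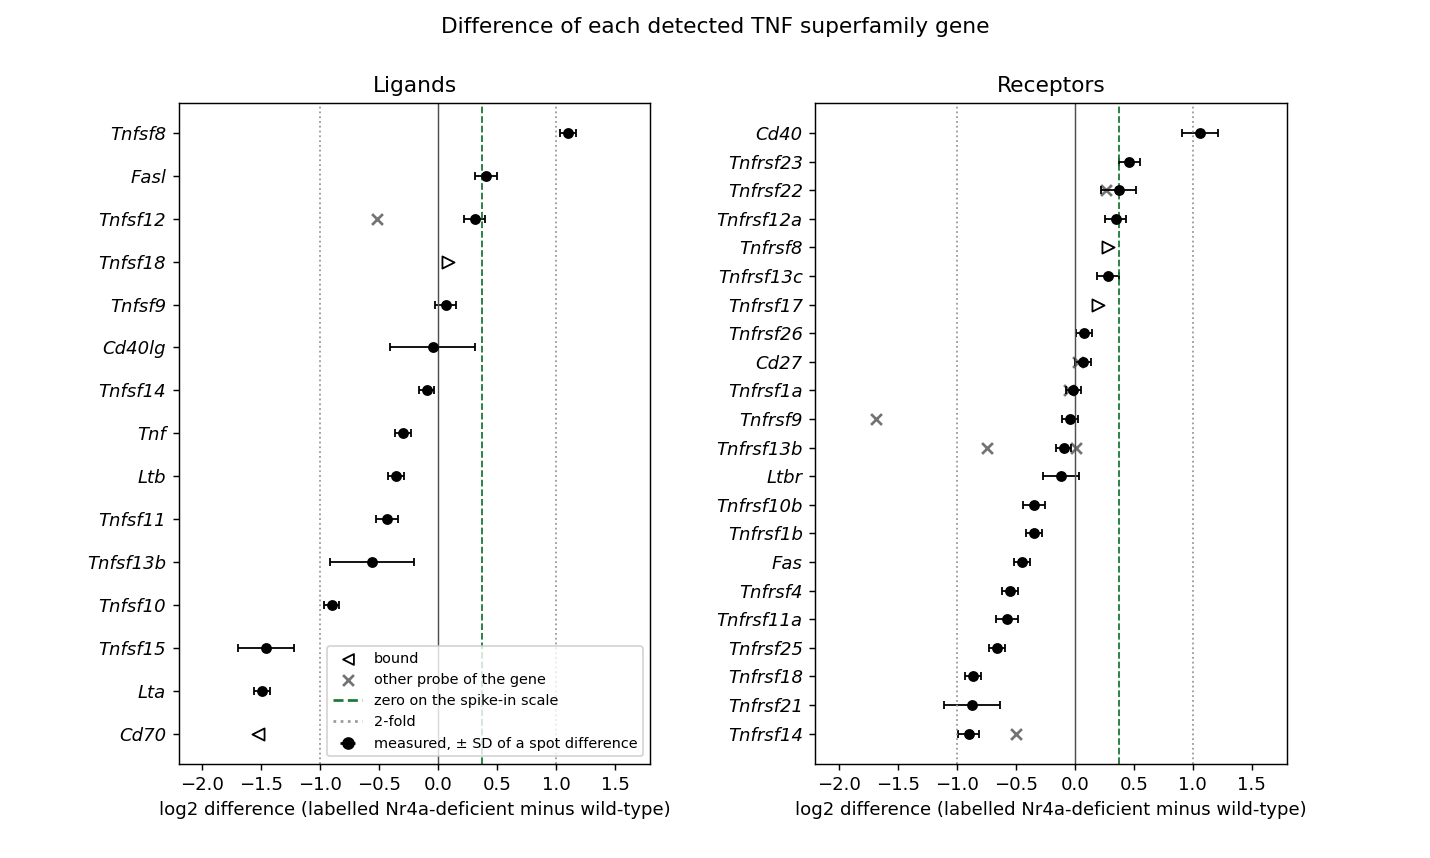
Log2 difference (horizontal, Nr4a-TKO minus wild-type) of the 15 detected ligands and 22 detected receptors, with circles for measured values, bars for ± 1 SD of a spot difference at that brightness, triangles for bounds and crosses for other probes of the gene. Dotted lines mark 2-fold and the green dashed line at 0.37 marks zero on the spike-in scale. Lta, Tnfsf15 and Cd70 lie beyond the lower line and Tnfsf8 and Cd40 beyond the upper one.

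Tnfrsf18, Tnfrsf4, Tnfrsf25 and Tnfrsf1b, the costimulatory receptors introduced above, each lay below 0, as did 49.4% of all genes, while Cd27 lay at 0.07. Tnfrsf18 (GITR) read 32729 units in the library labelled Nr4a-TKO and 69169 in the wild-type library, 1.82-fold lower (-0.86). Tnfrsf4 (OX40), its neighbour on chromosome 4, read 54488 and 92655 units and was 1.46-fold lower (-0.55). Tnfrsf25 was 1.58-fold lower. These bright probes have a spot noise of 0.068 log2 units, below each difference, and the direction held under all 10 settings. Several of these settings cannot change a gene read by a single probe above background on both arrays, so the 10 are not independent checks. Tnfrsf18 and Tnfrsf25 passed 2-fold on the spike-in scale, where Tnfrsf18 was 2.35-fold and Tnfrsf25 2.05-fold lower, and Tnfrsf4 was 1.89-fold lower. Tnfrsf1b, TNF receptor 2, lay at -0.35 with 2220 and 3278 units. Of the other Treg markers, Ikzf4 lay at -2.68, Il2ra at -1.27, Ikzf2 at -0.18 and Ctla4 at 0.11. Foxp3 lay at 0.02, but its probe was near the detection limit, with an SD of a spot difference of 0.36 at this brightness. On the spike-in scale all of these markers were below 0, beside a median of -0.37 over all genes.

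Tnfrsf9 (4-1BB), an activation-induced costimulatory receptor, gave unlike values at its 2 probes. The first 30 bases of each 60-base probe are shown because the result turns on which one is read.
Tnfrsf9 brighter probe: catagaccaatggtccagttaaaataactg
Tnfrsf9 dimmer probe: cgcgcacctcatccaagtctcttctaacgc
The brighter probe, on chromosome 4 from 150319582 to 150319641 on mm9, read 7743 and 9254 units and lay at -0.04. The dimmer probe, which starts 481 bases before it, read 570.3 units in the library labelled Nr4a-TKO and 2130 in the wild-type library and was 3.22-fold lower (-1.68). Both probes have a GC content of 38.3%. Their gap of 1.64 log2 units is wider than the spot noise of 0.068 and 0.091. Over the 3799 gene names read by more than 1 probe above background on each array, 3.66% had probes more than 1 log2 unit apart.

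Of the 7 members read by more than 1 such probe, 5 had all probes on the same side of 0. Tnfrsf14 (HVEM, the receptor of LIGHT and BTLA) was among them. Its brighter probe read 618 and 1340.3 units, 1.87-fold lower (-0.90), and its other probe read 335 and 548 units and lay at -0.49. Cd27, Tnfrsf1a and Tnfrsf22 had probes within 0.11 log2 units of each other. Tnfrsf13b (TACI, a receptor of BAFF and APRIL) read 11186 and 13883 units at its brightest probe and lay at -0.10, with 0.01 and -0.74 at the others, the last of them near background with 56.4 and 109.8 units. The second probes of Tnfrsf13c and Tnfrsf23 and both probes of Tnfrsf19 failed that call on both arrays.

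Cd40, the receptor through which helper T cells activate B cells and dendritic cells, was the only receptor past 2-fold. It read 441 units in the library labelled Nr4a-TKO and 245 in the wild-type library, 2.09-fold higher (1.06), with a spot noise of 0.15. That value stood just past 2-fold and was 0.69 on the spike-in scale, 0.97 with the median as the scale and 0.88 and 0.80 with the 2 normexp settings. Markers of B cells were higher in the same library. Of 10 listed, 8 were detected, 7 of them above 0 and 2 past 2-fold, their median was 0.83, and their summed level was 14.5 in the library labelled Nr4a-TKO and 8.0 in the wild-type library, in units of the 75th percentile. The 2 past 2-fold were Fcrla at 2.94 and Ebf1 at 1.17. Ms4a1 lay at 0.95, Cd79a at 0.75 and Cr2 at -0.02, and Pax5 and Blk were not detected. On the spike-in scale the median of these B cell markers was 0.46, with 7 above 0 and 1 past 2-fold. Of 12 myeloid and dendritic markers, which include cells that express Cd40, 11 were detected, 3 of them past 2-fold higher (Itgax at 2.65, Clec9a at 2.49 and Lyz2 at 1.03) and 4 lower, with a summed level of 45.3 and 60.5. The part of these cells in the Cd40 value was not tested.

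The other B lineage receptors gave no uniform picture. Tnfrsf13c, the BAFF receptor, read 1284 and 1226 units and lay at 0.28, or -0.09 on the spike-in scale. Tnfrsf17, the BCMA receptor of plasma cells, was detected in the library labelled Nr4a-TKO with 73.0 units and not in the wild-type library with 15.5 units. Because the detection limit was higher on the wild-type array (73.8 against 51.1 units), its bound was at least 1.15-fold higher. The values as read differed by 2.45 log2 units, so the bound does not place Tnfrsf17 within 2-fold. Of 4 plasma cell markers 3 were detected, with a summed level of 14.4 and 11.8, or 2.56 and 1.81 without the brightest, Xbp1. Jchain lay at 1.89, Xbp1 at 0.24 and Prdm1 at 0.15, and Sdc1 was not detected. On the spike-in scale Jchain lay at 1.52, Xbp1 at -0.13 and Prdm1 at -0.23. Whether plasma cell RNA added to Tnfrsf17 was not tested.

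Receptors with roles outside T and B lymphocytes also varied. Tnfrsf21 (DR6, a death receptor) read 146 and 309.7 units and was 1.83-fold lower (-0.87), with a spot noise of 0.24 and -0.56 with normexp. Tnfrsf11a (RANK, the RANKL receptor) lay at -0.57 with 726 and 1256 units, while its decoy Tnfrsf11b was not well above background. Tnfrsf12a, the TWEAK receptor Fn14, lay at 0.35, or -0.03 on the spike-in scale. The decoy-type TRAIL receptors Tnfrsf22 and Tnfrsf23 lay at 0.37 and 0.46 and their neighbour Tnfrsf26 at 0.08, or 0.00052, 0.092 and -0.29 on the spike-in scale. These 3 are close relatives in 1 cluster on chromosome 7, so cross-hybridisation between them is possible and each value is uncertain.

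**Figure D3:**
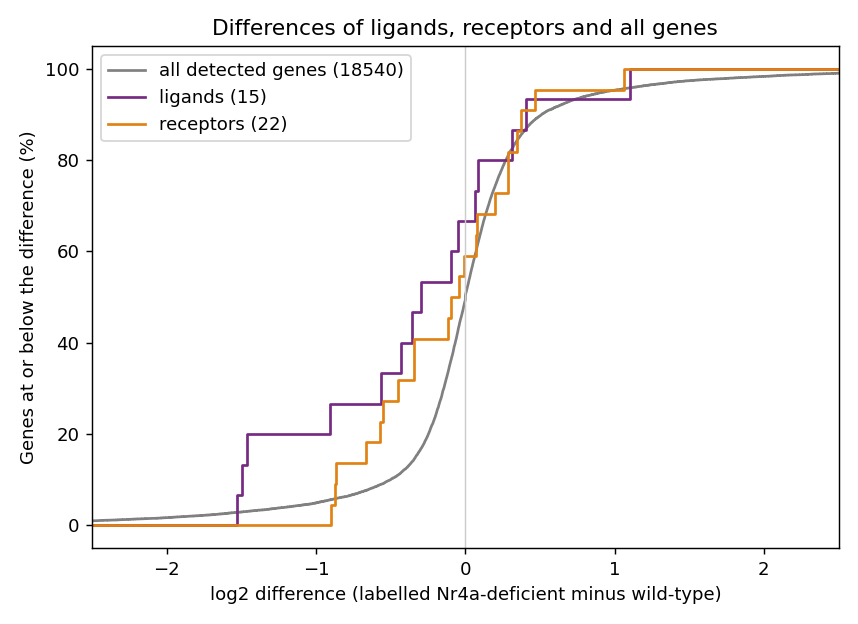
Share of genes (vertical, percent) at or below each log2 difference (horizontal, Nr4a-TKO minus wild-type) for 15 ligands (purple), 22 receptors (orange) and 18540 detected genes (grey). Below 0 lie 66.7% of the ligands, 59.1% of the receptors and 49.4% of all genes, and the receptor curve runs from -0.90 to 1.06.

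The median difference was -0.30 over the 15 detected ligands and -0.07 over the 22 detected receptors, with 0 over all detected genes. Below 0 lay 10 of the 15 ligands (66.7%) and 13 of the 22 receptors (59.1%), against 49.4% of all genes. The counts past 2-fold changed with the scale. With the spike-ins as the scale, 4 ligands (Cd70, Lta, Tnfsf10 and Tnfsf15) and 4 receptors (Tnfrsf14, Tnfrsf18, Tnfrsf21 and Tnfrsf25) passed 2-fold downward, together 21.6% of the 37 members against 8.13% of all genes, and no member passed it upward, against 3.02% of all genes. The same 8 members were lower past 1.5-fold on the first scale. The scales differ by a constant 0.37, so these 2 cuts nearly coincide and the match is not a separate result.

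Ligands and receptors of a pair were set side by side for 16 pairs, of which 15 had both partners detected. Both partners lay below 0 in 7 pairs and above 0 in 2 pairs, Tnfsf8 with Tnfrsf8 and Tnfsf12 with Tnfrsf12a. With 66.7% of the ligands and 59.1% of the receptors below 0, many pairs share a side without any link between partners. The counts therefore say nothing about pairing. In the 2 pairs above 0, Tnfrsf8 is a bound and the direction of Tnfsf12 differed between its probes. On the spike-in scale both partners lay below 0 in 11 pairs and above 0 in 0 pairs. The added ones were Tnfsf9 with Tnfrsf9, Cd70 with Cd27, Tnfsf13b with Tnfrsf13c and Tnfsf12 with Tnfrsf12a. The median of all genes was also -0.37 on that scale, and the added pairs arise from the same shift. Pairs below 0 on both scales included Tnfsf10 with Tnfrsf10b, Tnfsf11 with Tnfrsf11a and Tnfsf15 with Tnfrsf25. On the first scale the remaining 6 pairs had partners on opposite sides of 0, such as Tnfsf18 at 0.09 with Tnfrsf18 at -0.86 and Cd40lg at -0.05 with Cd40 at 1.06. Some pairs share a ligand, so they are not independent.

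**Figure D4:**
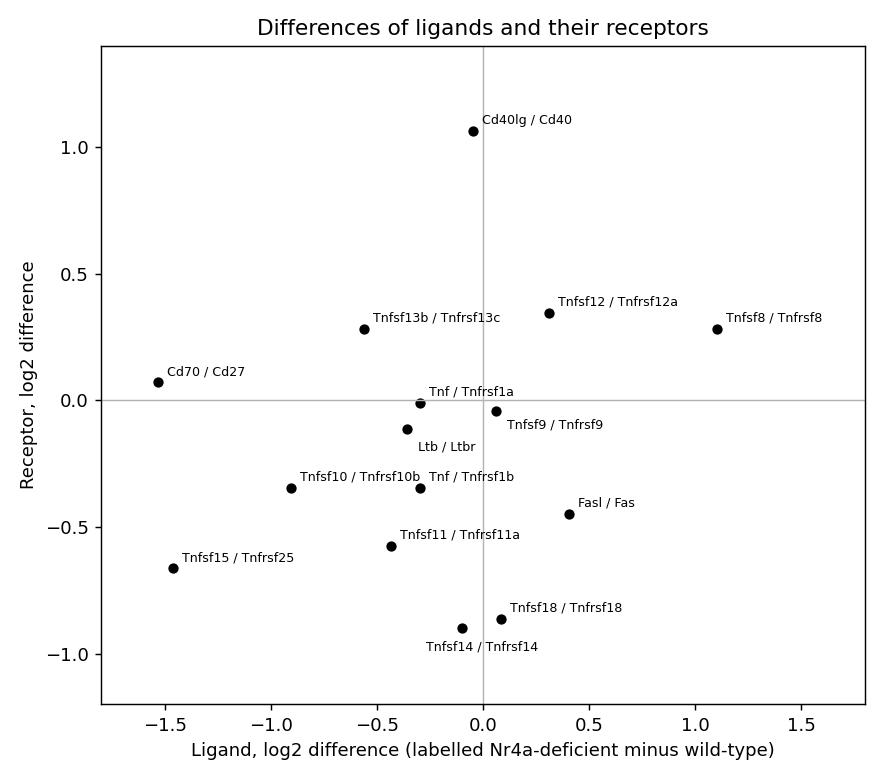
Log2 difference of the ligand (horizontal) against that of its receptor (vertical), both Nr4a-TKO minus wild-type, for 15 pairs with both partners detected, bounds included at their bound. Tnfsf15 with Tnfrsf25 lies at -1.46 and -0.66, and Cd40lg with Cd40 at -0.05 and 1.06.

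Position gave a mixed view as well. On mm9, 21 of the 40 genes had another member's probe within 1 Mb, in 8 clusters. All detected members lay below 0 in 2 clusters, Ltb, Tnf and Lta on chromosome 17 and Tnfrsf4 and Tnfrsf18 on chromosome 4, and above 0 in 2 others, Tnfsf18 with Fasl on chromosome 1 and the 3 chromosome 7 receptors, but on the spike-in scale Tnfrsf26 lay at -0.29 and the bound of Tnfsf18, like those of Tnfrsf8 and Tnfrsf17, came to 0. In the second cluster of chromosome 17, Cd70 had its bound at -1.53 while Tnfsf9 lay at 0.06 and Tnfsf14 at -0.10. The chromosome 6 cluster of Cd27, Ltbr and Tnfrsf1a spanned -0.11 to 0.07. On the spike-in scale both of these clusters also lay wholly below 0, which makes 4 clusters below and 0 above. That scale puts the median of all genes at -0.37, and the added clusters arise from the same shift.

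Adaptors, kinases and transcription factors downstream of these receptors were counted as lists, beside 90.4% of all detected genes within 2-fold. Of 30 adaptors, death signalling and ubiquitin genes, all 30 were detected, none passed 2-fold, and their median was -0.05. Tnfaip3 (A20, a feedback inhibitor of NF-kappaB) was the lowest at -0.63, with 12730 and 22909.9 units, whereas Traf1 lay at -0.09, Traf2 at -0.23 and Ripk3 at 0.28. None of the 12 kinase and NF-kappaB genes passed 2-fold, 7 lay below 0 and 5 above, and their median was -0.09. On the spike-in scale Tnfaip3 (-1.003) and Rel (-1.24) passed 2-fold downward, 1 gene in each list, the medians were -0.42 and -0.46, and the median of all genes was -0.37. Genes named from these lists were picked with their values in view. The lowest of the kinase and NF-kappaB list, Rel, was dim with 55.9 and 119 units and lay at -0.87. Nfkbia lay at -0.33, Relb at -0.38 and Nfkb2 at -0.34, while Bcl3 lay at 0.27, Ikbkb at 0.17 and Chuk at 0.15. Of 5 relatives named outside the rule, Relt lay at 0.04, Ngfr had a bound of at least 2.24-fold higher, and Eda, Edar and Eda2r were not detected. The 3 shedding genes lay above 0, with Adam17, which releases TNF from the cell surface, at 0.47, and on the spike-in scale Adam10 and Rhbdf2 turn below 0.

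Markers of other cell types were present on both arrays and differed in both directions. Of all detected genes, 4.7% were past 2-fold higher and 4.94% past 2-fold lower. Plasmacytoid dendritic markers had 5 of 7 past 2-fold higher (summed level 116 in the library labelled Nr4a-TKO and 85.5 in the wild-type library). Siglech, at 0.10, made up 77.7 and 72.2 of these sums, and without it they were 38.3 and 13.2. Cox6a2 lay at 6.83. Natural killer and CD8 T markers had 4 of 9 detected genes past 2-fold higher (42.8 and 9.16). The 4 were Gzmb at 4.19, Nkg7 at 1.10, and Klrd1 and Klrk1 at bounds of at least 3.71 and 3.32. Of the others, Klrb1c lay at 0.65, Cd8a at 0.51, Cd8b1 at 0.42, Prf1 at 0.05 and Eomes at -0.38. On the spike-in scale Prf1 lay at -0.32 and Eomes at -0.75. Ncr1 was not detected, and Fasl lay at 0.41. Without Gzmb the summed levels were 15.6 and 7.67. In the myeloid and dendritic list counted above, the genes past 2-fold lower were Cd14, C1qa, C1qb and C1qc at -1.36 to -1.60, with Csf1r at -0.96 and Xcr1 not detected, beside Tnfsf15 and Tnfsf13b, which myeloid cells also express. Of the erythroid and platelet markers, 4 of 8 were detected and 3 of these were past 2-fold lower (7.21 and 25.7). Granulocyte and mast cell markers had 5 of 7 detected and 1 past 2-fold higher, and stromal and endothelial markers 5 of 6 detected and 1 past 2-fold higher. Pan T cell markers had 7 of 8 detected and none past 2-fold, with a median of 0.04 (339 and 341). On the spike-in scale 4 plasmacytoid, 3 natural killer and CD8 T, and 2 myeloid and dendritic markers were past 2-fold higher, against 3.02% of all genes. Lyz2 then lay at 0.66. On that scale 5 myeloid and dendritic markers were past 2-fold lower, with Csf1r at -1.33, against 8.13% of all genes. The part of these cell types in the members' values was not tested.

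**Figure D5:**
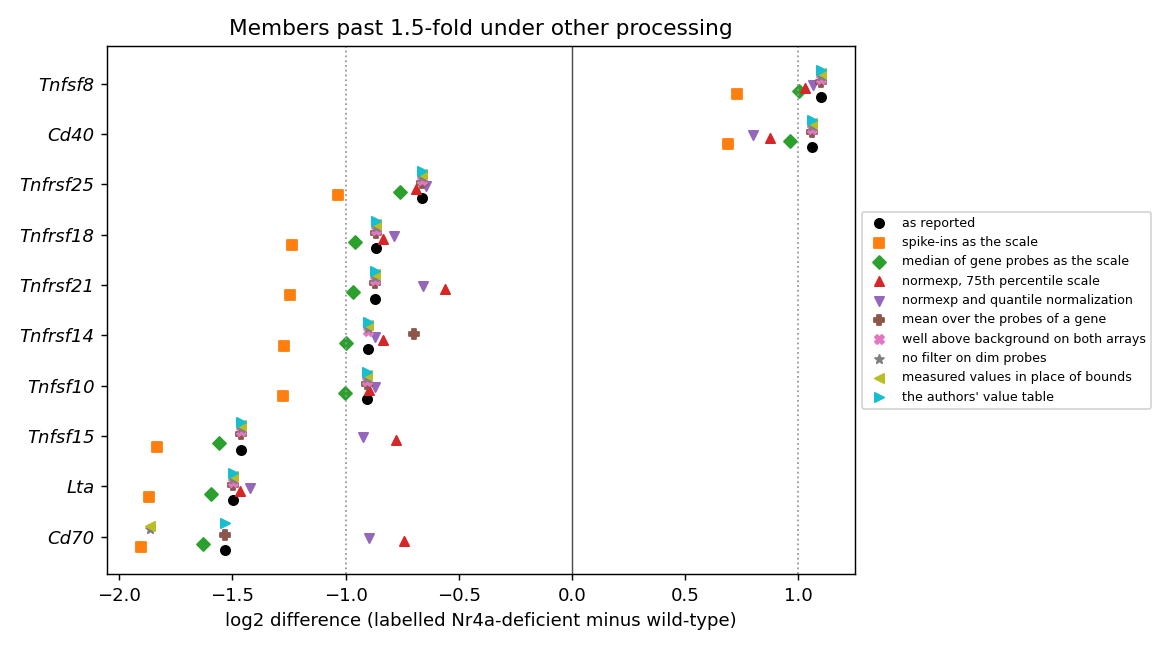
Log2 difference (horizontal, Nr4a-TKO minus wild-type) of the 10 members past 1.5-fold, with 1 symbol for each of 10 processing settings (9 for Cd70) and dotted lines at 2-fold. Lta stays below the lower line in all 10, between -1.87 and -1.42, and Tnfsf8 spans 0.73 to 1.10.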

How the data were processed

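Total RNA (600 ng for labelling, per the labels' protocols) of each library was labelled with Cy3 by a low-input amplification kit and hybridised to 1 single-colour Agilent array, and both arrays lay on 1 slide read in 1 scan, per the file headers. The deposited scanner files hold intensity values which, per the file headers, Agilent Feature Extraction 10.7.3.1 subtracted for background and detrended within the array. The authors' deposited value table holds intensity values within 1% of them for 99.7% of probes and was used as an alternative.

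Spots flagged as outliers were left out, 173 and 209, of which 1 was a member's. No gene spot was saturated. Log2 processed signals minus the array's 75th percentile were averaged over spots, and the background call of a probe was that of more than 50% of its spots. A gene took its brightest probe among those above background on at least 1 array. The dim side of a bound is the higher of the probe's own value and the lowest value well above background on that array. Members kept the array's names, and other genes were updated through RefSeq GRCm38.p6, with 27184 probes matched on accession, 3566 on symbol, 562 on synonym and 8036 left as named. With 1 array per group no test was run, and the number of arrays limits precision. By the fixed rule, members named are those past 2-fold, listed ligands with their receptors, and members with several probes. Tnfrsf21 and Tnfrsf26 were described after their values were seen. Members and lists were chosen with earlier results of these data known. Alternatives were computed with limma 3.58.1 in R 4.3.3 and with Python 3.11.15. The calculation was tested on simulated data. Tnfsf13 was not analysed here.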

Additional observations from a re-analysis of the deposited data

How the results depend on the processing

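Counts of members past 2-fold are small and changed with the processing. With the spike-ins as the scale, 0 ligands and 0 receptors were higher, 4 receptors were lower, and the medians were -0.67 for ligands and -0.44 for receptors. With the median of gene probes as the scale, no receptor was higher (0), and the medians were -0.40 and -0.17. With normexp, and with normexp and quantile normalization, 1 ligand was lower and 0 receptors were higher in each. Without a filter on dim probes, and with measured values in place of bounds, 2 ligands and 2 receptors were higher in each. When probes of a gene were averaged, the receptor median was -0.19. At 1.5-fold, 4 receptors were lower. The cause of these moves was not tested. The median of all genes moved to -0.37 on the spike-in scale, -0.09 with the median scale and -0.11 without the filter, where the receptor median of -0.03 lay above it. Of 37 detected members, 24 kept their sign under all 10 settings, and Cd70 did so under the 9 that gave it a value. In some setting 9 members had the other sign and the bounds of 3 (Tnfsf18, Tnfrsf8 and Tnfrsf17) came to 0. Lta was past 2-fold in all 10. The settings are not independent checks, because all re-process the same 2 arrays. Several cannot change a gene with 1 probe above background on both arrays, and the spike-in and median scales only shift measured values by a constant. No paired analysis was possible because each group has 1 array. Dim probes limit Cd70, Tnfsf15, Tnfrsf17, Tnfrsf8, Tnfsf18 and Cd40lg and, among the Treg markers, Foxp3.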
